A study of Mus musculus with 6 samples.

Results

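Collagens are the main structural proteins of the extracellular matrix, each built from chains that wind into a triple helix. Fibrillar collagens form the tensile fibres of connective tissue. Basement membrane collagens form the sheet on which an epithelium rests, and the remaining types form beaded filaments, coat fibrils or span cell membranes. In the developing lung most fibrillar collagen is made by the mesenchyme, while basement membrane chains come from epithelium, endothelium and mesenchyme together. The collagen genes described here are all genes of the deposited tables whose identifiers map to a mouse symbol made of Col, a number, a and a number. They numbered 42, and without Col2a1 and Col9a1, which the rule leaves out, 40 of the 14162 genes in the tables. The 40 comprised 10 fibrillar genes, 9 genes of the basement membrane and its zone, and 21 of other types. Col10a1 and Col28a1 were not analysed here.

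The study sequenced RNA of mouse lungs at E12.5, when the airways are branching. One group, here called Dnmt1KO, had 3 libraries of the genotype ShhCre-Dnmt1KO, in which Cre expressed from the Shh locus deletes Dnmt1, the maintenance DNA methyltransferase, and the other group, WT, had 3 libraries of wild-type littermates. Shh is active in the lung endoderm, so the deletion is aimed at the epithelium, whereas the RNA came from lung with no sorting step in the labels. Cre is named in the titles of the Dnmt1KO libraries alone, so the Cre allele and the deletion cannot be told apart. Nothing states that the libraries are from separate embryos, and p-values therefore measure the spread between these libraries, which may be in part technical. Dnmt1KO library 1 held 3 reads over 4 genes of the Y chromosome, against 4301 and 4780 in Dnmt1KO libraries 2 and 3. It is therefore not a repeat of their RNA, and for the remaining libraries this is not known. In bulk RNA, fewer cells of a type and less RNA per cell cannot be told apart.

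The deposited values are log2 values from which whole reads could be recovered, between 18192629 and 25597662 per library. Dnmt1 had 8723, 8565 and 8388 reads in Dnmt1KO libraries 1, 2 and 3 against 13466, 10786 and 12602 in WT libraries 1, 2 and 3 (log2 difference -0.31 ± 0.087 SE, limma adjusted p = 0.507). Markers of the labelled tissue were present, as the lung mesenchyme genes Tbx4 and Tbx5 had at least 3754 reads and the lung epithelium gene Nkx2-1 at least 2252 in every library. Limma called 41 of the 14162 genes at an adjusted p under 0.05, which is 0.29%, with 40 (0.282%) higher and 1 (0.00706%) lower in Dnmt1KO, and 4.52% of genes had an unadjusted p under 0.05.

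One collagen gene rose in the Dnmt1KO lungs. Col6a5 encodes a long chain of type VI collagen, the beaded filament of the matrix around cells, and had 9.35 times the WT level in Dnmt1KO lungs (limma adjusted p = 0.0107), a call that held under 7 of the 12 alternatives that could test it. The other 39 collagen genes, including every fibrillar and basement membrane gene, did not pass the test in either direction, and their log2 differences ran from -0.48 to 0.79. At an unadjusted p under 0.05 there were 2 collagen genes, Col6a5 higher and Col4a6 lower, and the median log2 difference of the 40 genes was 0.016. Together the 40 genes, without Col2a1 and Col9a1, took 0.9 ± 0.0707% of reads in Dnmt1KO and 0.886 ± 0.117% in WT (mean ± SD, n = 3 each). This difference was smaller than the spread in either group.

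The promoter sequences of Col6a5 and of its neighbours Col6a6 and Col6a4 are shown because these related genes lie side by side on chromosome 9 and differed in what the data show for them. Col3a1 is shown as the collagen gene with the most reads per length. Each stretch lies before the RefSeq start of transcription in build GRCm38.p6 and reads 5′ to 3′ on the gene's strand. CG dinucleotides, the sites at which Dnmt1 maintains methylation where it is present, are in capitals. Parts that the GENCODE annotation places within an exon of the gene were left out. Col6a5 is at chr9:105960644-105960893 on the minus strand, Col6a6 at chr9:105828161-105828335 on the minus strand, Col6a4 at chr9:106096784-106096941 on the minus strand and Col3a1 at chr1:45311288-45311537 on the plus strand.
Col6a5: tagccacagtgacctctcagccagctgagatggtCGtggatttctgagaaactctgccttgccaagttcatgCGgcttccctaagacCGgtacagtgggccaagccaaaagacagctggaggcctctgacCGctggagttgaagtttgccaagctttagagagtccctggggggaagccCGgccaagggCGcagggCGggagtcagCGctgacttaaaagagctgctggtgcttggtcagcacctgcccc
Col6a6: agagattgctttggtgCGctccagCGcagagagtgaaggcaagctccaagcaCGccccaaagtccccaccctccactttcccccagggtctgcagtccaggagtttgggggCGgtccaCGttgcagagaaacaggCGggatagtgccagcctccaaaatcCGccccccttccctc
Col6a4: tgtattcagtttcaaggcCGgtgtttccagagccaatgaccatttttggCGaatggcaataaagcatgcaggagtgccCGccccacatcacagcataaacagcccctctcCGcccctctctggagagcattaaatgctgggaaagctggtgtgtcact
Col3a1: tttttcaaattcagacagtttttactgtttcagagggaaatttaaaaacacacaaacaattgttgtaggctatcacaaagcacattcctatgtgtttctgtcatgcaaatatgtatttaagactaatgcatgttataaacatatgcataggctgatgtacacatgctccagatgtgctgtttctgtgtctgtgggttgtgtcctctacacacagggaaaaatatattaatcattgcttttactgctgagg

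The Col6a5 stretch of 250 bases holds 8 CG dinucleotides, the Col6a6 stretch of 175 bases holds 7, the Col6a4 stretch of 158 bases holds 4 and the Col3a1 stretch of 250 bases holds none. Over the whole RefSeq window of 300 bases, which runs into the start of the gene, there were 10 in Col6a5, 14 in Col6a6, 5 in Col6a4 and 0 in Col3a1. DNA methylation was not measured here, so these counts describe the sequence alone.

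Type VI collagen is assembled from the products of Col6a1 and Col6a2 with a longer chain, which is most often that of Col6a3 and can be that of Col6a4, Col6a5 or Col6a6. Col6a5 (ENSMUSG00000091345) had 585, 290 and 663 reads in Dnmt1KO libraries 1, 2 and 3 against 53, 78 and 50 reads in WT libraries 1, 2 and 3. Its deposited log2 values were 11.68, 10.52 and 11.65 in Dnmt1KO and 7.74, 8.63 and 7.80 in WT. All 3 Dnmt1KO libraries were above all 3 WT libraries, with the lowest Dnmt1KO library 3.72 times the highest WT library in scaled reads. The log2 difference was 3.23 ± 0.36 (SE) with a 95% interval of 2.41 to 4.04 and a limma adjusted p of 0.0107. Dnmt1KO replicate 2 was the lowest of its group and WT replicate 2 the highest of its own.

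The call for Col6a5 depended on the libraries and settings used. Among others, it did not pass without Dnmt1KO replicate 1 (log2 difference 3.03, limma adjusted p = 0.0804) or without WT replicate 3 (3.10, 0.0857), nor with voom applied to the reads (3.26, 0.065) or without trend and robust estimation (3.23, 0.06). It passed without any other single library, at adjusted p between 0.00504 and 0.0468, and with quantile normalization (0.0176), median centring (0.0112) or sample weights (0.0134), and its log2 difference was between 3.03 and 3.61 under every alternative that could test it. By mean level it belonged to the lowest 25% of genes, so the fit without those genes did not include it. Among the 40 genes called higher it ranked 17 by p and 33 by fold. Of those 40, 28 had at most 10 reads in each of the WT libraries, and among the other 12 Col6a5 ranked 5 by fold.

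The other type VI chains did not pass the test. Col6a6 had 783, 1133 and 848 reads in Dnmt1KO lungs and 1132, 995 and 950 in WT lungs, a log2 difference of 0.037 with a 95% interval of -0.28 to 0.35. Col6a4 had 57, 55 and 60 reads in Dnmt1KO lungs and 66, 58 and 77 in WT lungs, with a difference of -0.0076 (-0.50 to 0.48). The groups overlapped for both. Col6a3, the usual long chain, had 1340, 1926 and 1683 reads in Dnmt1KO lungs and 2961, 1033 and 1913 in WT lungs (0.063, interval -0.56 to 0.69). Its WT libraries spread more widely than its Dnmt1KO libraries. The chains common to all type VI collagen, Col6a1 and Col6a2, had the highest values of the family. Col6a1 stood at log2 values of 14.12, 14.09 and 14.15 in Dnmt1KO and 14.25, 13.84 and 14.20 in WT (difference 0.021, interval -0.23 to 0.28), and Col6a2 at 14.48, 14.37 and 14.37 in Dnmt1KO and 14.48, 14.23 and 14.52 in WT (-0.0046, interval -0.22 to 0.21). The signs of Col6a2 and Col6a4 turned under 2 and 1 of the 3 other scalings.

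Levels per length were taken as reads scaled to library size and transcript length (RPKM). Col6a5 stood at 3.46, 1.55 and 3.39 RPKM in Dnmt1KO libraries 1, 2 and 3 and at 0.223, 0.408 and 0.232 in WT libraries 1, 2 and 3. Its level lay below that of Col6a6 in every library, the mean of Col6a6 being 5.30 ± 0.974 in Dnmt1KO and 5.07 ± 0.418 in WT (mean ± SD, n = 3 each). Col6a4 averaged 0.394 ± 0.0279 in Dnmt1KO and 0.394 ± 0.0515 in WT, among the WT levels of Col6a5 and below its Dnmt1KO levels. Of the summed per-length levels of Col6a3, Col6a4, Col6a5 and Col6a6, Col6a5 made up 21.5%, 8.71% and 20.8% in Dnmt1KO lungs and 1.31%, 3.62% and 1.72% in WT. Col6a1 and Col6a2 remained far above all 4, at 42.6 ± 0.935 and 45.8 ± 1.99 RPKM in Dnmt1KO and 41.9 ± 6.52 and 45.7 ± 5.20 in WT.

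**Figure D1:**
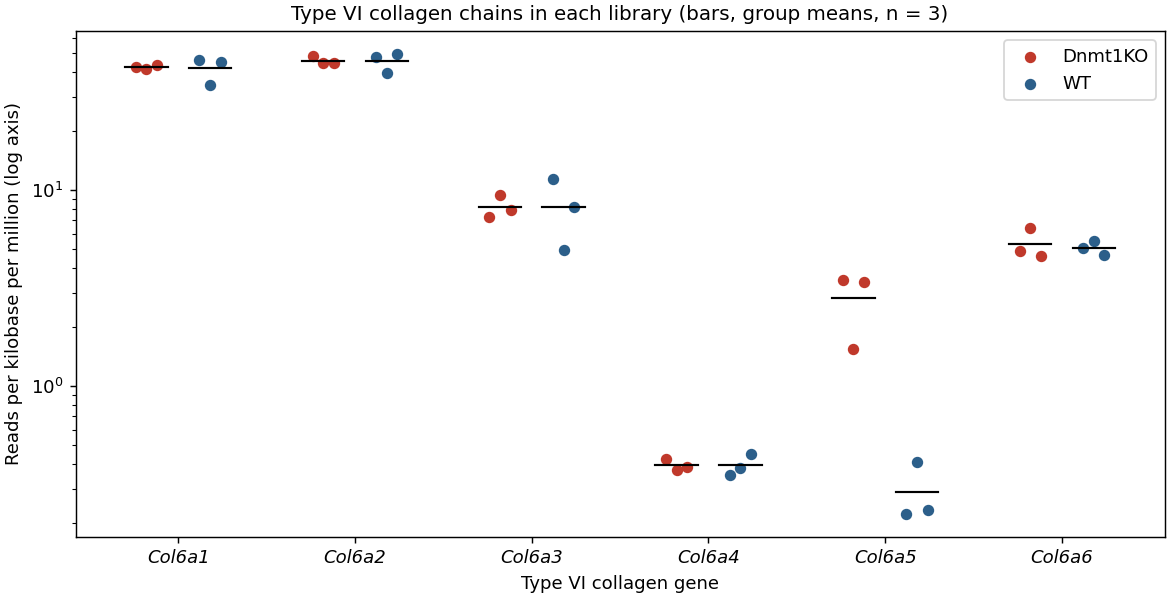
Levels of the 6 type VI collagen genes in RPKM on a log axis, each point a library (Dnmt1KO left, WT right of each pair) and each bar a group mean (n = 3). Col6a5 lay between 1.55 and 3.46 in Dnmt1KO and between 0.223 and 0.408 in WT, while the points of the other chains overlapped between the groups.

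Col6a5 and Col6a6 share stretches of sequence, since 3.42% of the 50-base words in the Col6a5 transcripts of the annotation also occur in another collagen gene, all of them in Col6a6. How reads from these stretches were divided between the genes is uncertain. Col6a5 overlaps no exon of another annotated gene. Along chromosome 9 the measured genes on the side of Col6a6 were Pik3r4 (log2 difference -0.041 ± 0.094 SE), Atp2c1 (0.067 ± 0.089) and Aste1 (-0.089 ± 0.17), and those on the side of Col6a4 were Glyctk (0.13 ± 0.19), Wdr82 (-0.059 ± 0.068) and Ppm1m (-0.040 ± 0.083). None of these neighbours passed limma's test (adjusted p = 1 for each).

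**Figure D2:**
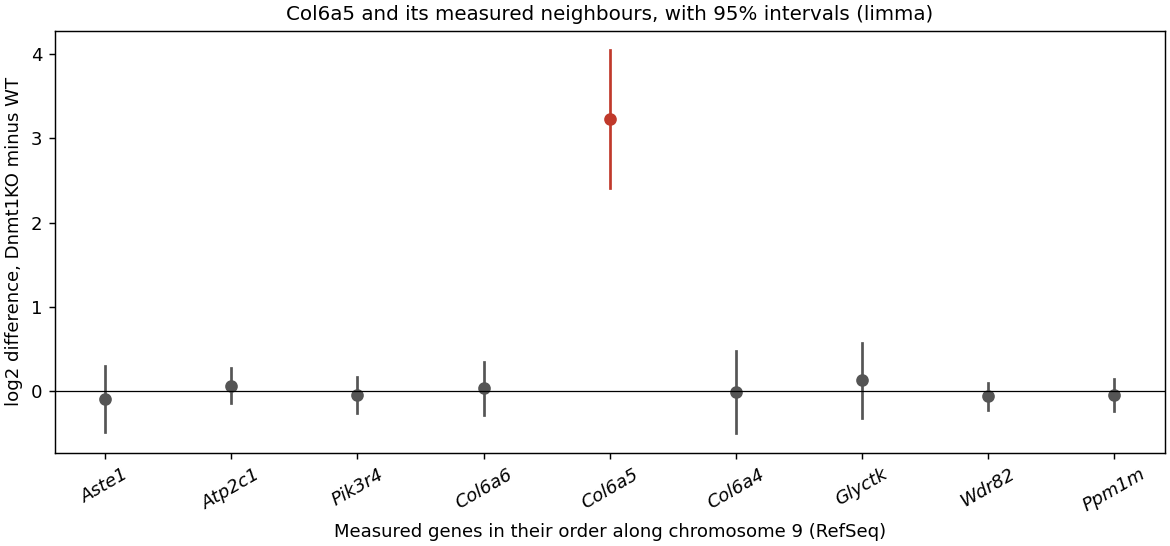
Log2 difference, Dnmt1KO minus WT, of Col6a5 and the measured genes around it in their order along chromosome 9, with 95% intervals from limma (n = 3 each). Col6a5 is at 3.23 and its neighbours lie between -0.089 and 0.13.

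Among fibrillar collagens none passed the test in either direction. By limma 0 of 10 passed, and 0 had an unadjusted p under 0.05 by limma or by voom. Without Dnmt1KO replicate 3, limma had 2 of 10 under 0.05, 1 higher and 1 lower, against 811 of 14162 over all genes. Over all 6 libraries 7 of the 10 had a positive and 3 a negative log2 difference. Their median was 0.046, against a median of -5.9e-05 over all genes. Col3a1, which forms fibrils together with type I collagen in pliable tissues, had the highest per-length level of all 40 genes. It had 29614, 43195 and 42585 reads in Dnmt1KO lungs and 50282, 36750 and 44005 in WT lungs, at log2 values of 17.34, 17.74 and 17.65 in Dnmt1KO and 17.62, 17.50 and 17.56 in WT (difference 0.014, 95% interval -0.24 to 0.27). The Dnmt1KO values surrounded the WT values.

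The chains of type I collagen, the main fibre of connective tissue, followed each other from library to library. Col1a1 stood at 17.11, 17.54 and 17.03 in Dnmt1KO and 17.47, 17.04 and 16.91 in WT (difference 0.085, interval -0.32 to 0.49). Col1a2 stood at 17.01, 17.30 and 16.91 in Dnmt1KO and 17.29, 16.89 and 16.82 in WT (0.077, interval -0.26 to 0.41). Dnmt1KO replicate 2 and WT replicate 1 were the highest of their groups for both genes. The log2 ratio of Col1a1 to Col1a2 within a library was 0.15 ± 0.075 in Dnmt1KO and 0.14 ± 0.046 in WT (mean ± SD, n = 3 each, exact two-sided permutation p = 0.8).

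The chains of type V collagen, which sit inside type I fibrils and control their diameter, were next in level. Col5a2 stood at 15.82, 16.17 and 16.04 in Dnmt1KO and 15.92, 15.89 and 16.01 in WT (difference 0.075, interval -0.16 to 0.31), and Col5a1 at 15.76 ± 0.071 in Dnmt1KO and 15.85 ± 0.25 in WT (mean ± SD, n = 3 each). Col5a3, a minor type V chain, was the collagen gene with the fewest reads per length, at 43, 29 and 19 reads in Dnmt1KO lungs and 34, 10 and 20 in WT lungs. Its difference of 0.79 had an interval of -0.33 to 1.91, which in folds is 0.797 to 3.75, and the groups overlapped.

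The smallest p among fibrillar genes was that of Col27a1, a fibrillar collagen known from cartilage. It stood at 14.05, 13.94 and 14.22 in Dnmt1KO and 14.37, 14.26 and 14.16 in WT (difference -0.19, interval -0.42 to 0.03, unadjusted p = 0.0809, limma adjusted p = 1). Dnmt1KO replicate 3 lay above WT replicate 3, so the groups overlapped. Col24a1, a fibrillar collagen known from bone, stood at 10.72, 10.63 and 9.91 in Dnmt1KO and 10.52, 10.05 and 10.11 in WT (0.19, interval -0.34 to 0.73). Of the type XI chains, which are part of cartilage fibrils and also occur elsewhere, Col11a1 had a difference of -0.067 and Col11a2 of 0.017.

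**Figure D3:**
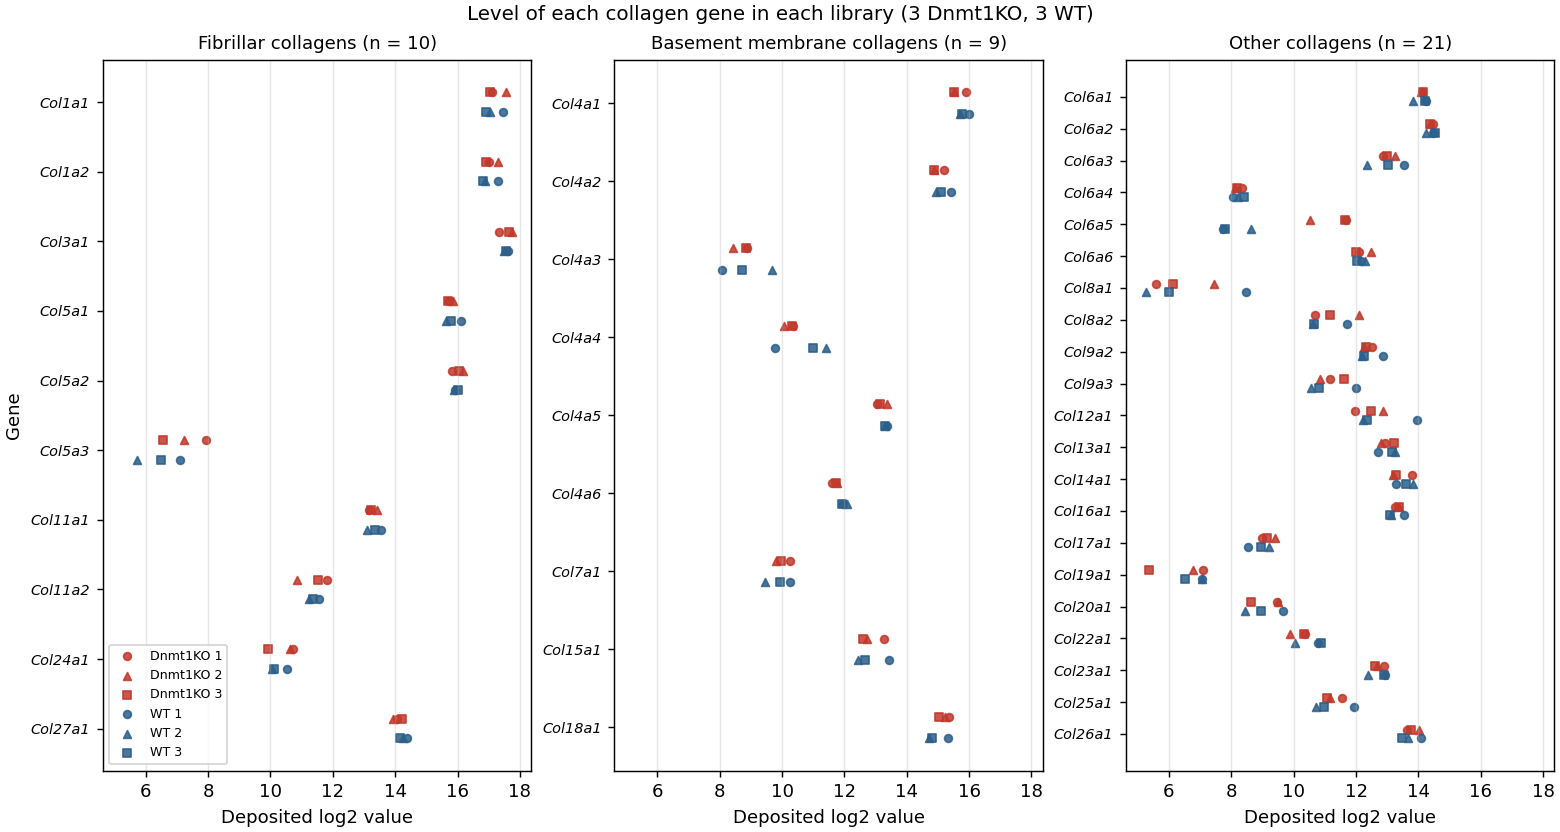
Deposited log2 value of each of the 40 collagen genes in each library, by class, with Dnmt1KO (red) above WT (blue) for each gene and 1 marker shape per replicate number. Col1a1, Col1a2 and Col3a1 lie highest, between 16.82 and 17.74, and Col6a5 shows the widest gap between the groups.

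Basement membrane collagens did not pass the test either, and 6 of their 9 differences were negative. By limma 0 of 9 passed and 1 had an unadjusted p under 0.05, and by voom likewise 0 and 1. The number under 0.05 by limma depended on the libraries. It was 3 of 9 without WT replicate 1 (773 of 14162 over all genes) and 0 of 9 without WT replicate 2 (570 of 14162). Over all 6 libraries the median log2 difference was -0.15. Col4a6, an X-linked type IV chain found in selected epithelial basement membranes, was the basement membrane gene with the smallest p. It had 558, 678 and 698 reads in Dnmt1KO lungs and 979, 848 and 886 in WT lungs, at log2 values of 11.61, 11.75 and 11.72 in Dnmt1KO and 11.94, 12.07 and 11.93 in WT. All Dnmt1KO libraries lay below all WT libraries. The difference was -0.29 ± 0.090 (SE) with an interval of -0.49 to -0.079, and it did not pass over all genes (limma adjusted p = 0.649). Over all 40 collagen genes the groups were separate in 2, Col4a6 and Col6a5, against 8.78% of all genes. The groups were separate and higher in Dnmt1KO in 4.79% of all genes, and separate and lower in 3.99%.

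Col4a5 lies beside Col4a6 on the X chromosome, and the chains assemble together. It stood at 13.03, 13.35 and 13.13 in Dnmt1KO and 13.35, 13.31 and 13.29 in WT (difference -0.15, interval -0.37 to 0.072), with Dnmt1KO replicate 2 level with WT. The log2 ratio of Col4a5 to Col4a6 was 1.42, 1.60 and 1.41 in Dnmt1KO and 1.41, 1.24 and 1.35 in WT (exact two-sided permutation p = 0.2). Dnmt1KO replicate 1 held 3 reads over 4 genes of the Y chromosome, while the other 5 libraries held 4155 to 5207. Without that library the differences of these X-linked genes were -0.077 for Col4a5 and -0.24 for Col4a6. It is also a library without which Col6a5 did not pass (3.03, limma adjusted p = 0.0804), as was WT replicate 3, which held Y reads. The part of sex in the collagen values was not tested.

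Col4a1 and Col4a2, the chains of the most widespread type IV collagen, start 21 bases apart on chromosome 8 and run in opposite directions. Col4a1 stood at 15.89, 15.50 and 15.52 in Dnmt1KO and 15.99, 15.70 and 15.76 in WT (difference -0.18, interval -0.47 to 0.11). Col4a2 stood at 15.18, 14.88 and 14.86 in Dnmt1KO and 15.42, 14.95 and 15.10 in WT (-0.18, interval -0.49 to 0.13). Their log2 ratio differed least between the groups of the 7 pairs examined, at 0.66 ± 0.047 in Dnmt1KO and 0.66 ± 0.088 in WT (mean ± SD, n = 3 each, exact two-sided permutation p = 1). Exons of the genes overlap in the annotation, as do those of Col20a1 and Col9a3 with another measured gene, and whether the counting used strand is not given in the sources used here.

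Col4a3 and Col4a4, which form the collagen of mature alveolar and kidney basement membranes together with Col4a5, varied more. Col4a4 had 234, 209 and 265 reads in Dnmt1KO lungs and 218, 536 and 466 in WT lungs, and Col4a3 had 84, 68 and 94 in Dnmt1KO and 67, 163 and 95 in WT. Both were low in WT replicate 1 and high in WT replicate 2. The difference of Col4a4 was -0.48 (interval -1.34 to 0.38), and without WT replicate 1 it was -0.96 (limma adjusted p = 0.0923). These genes were picked out after their values were seen.

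Col18a1 and Col15a1 encode the collagens with heparan or chondroitin sulfate chains that anchor the basement membrane to the matrix. Col18a1 stood at 15.35, 15.22 and 15.03 in Dnmt1KO and 15.33, 14.71 and 14.81 in WT (difference 0.25, interval -0.12 to 0.62). It had the largest positive difference of its class, and WT replicate 1 was level with the Dnmt1KO libraries. Col15a1 differed by 0.020 and Col7a1, the anchoring fibril collagen, by 0.13.

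**Figure D4:**
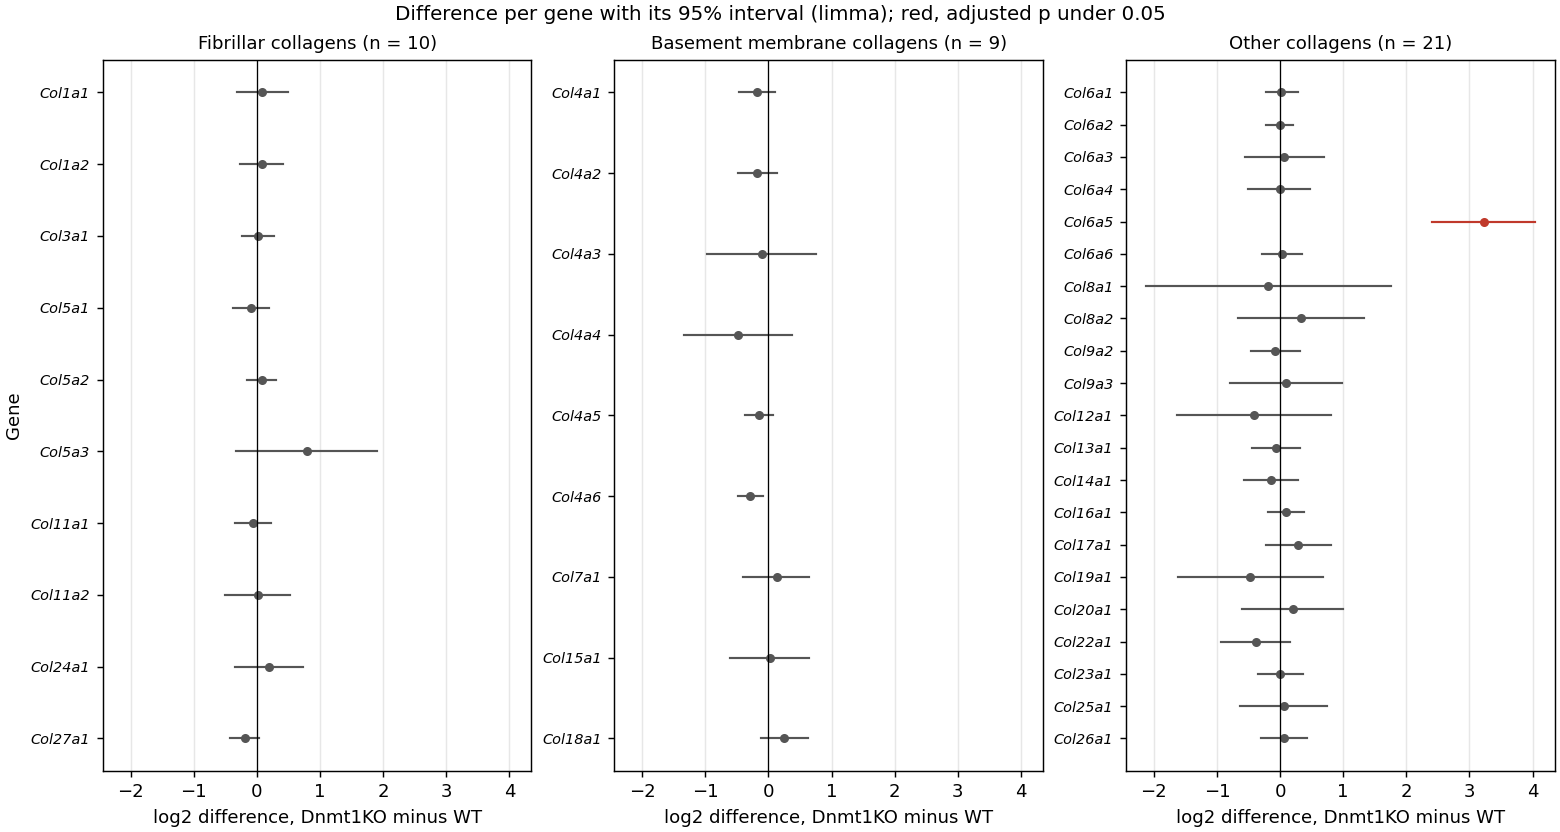
Log2 difference, Dnmt1KO minus WT, of each of the 40 collagen genes with its 95% interval from limma (n = 3 each), by class. Col6a5 at 3.23 is the gene past an adjusted p of 0.05 and is drawn in red, and the other 39 lie between -0.48 and 0.79.

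Of the 21 other collagens 12 had a positive and 9 a negative log2 difference, with a median of 0.021. Besides type VI, those with the highest values were Col26a1 and Col14a1, whose protein coats the surface of type I fibrils. Col26a1 stood at 13.63, 14.03 and 13.76 in Dnmt1KO and 14.07, 13.67 and 13.48 in WT (difference 0.065, interval -0.30 to 0.43). Col14a1 stood at 13.80, 13.20 and 13.28 in Dnmt1KO and 13.27, 13.83 and 13.61 in WT (-0.14, interval -0.57 to 0.28). The groups overlapped for both.

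After Col6a5 the smallest p values of this class were those of Col22a1, Col17a1 and Col19a1, none under 0.05. Col22a1, known from tissue junctions, had 235, 186 and 264 reads in Dnmt1KO lungs and 438, 209 and 429 in WT lungs (difference -0.38, interval -0.93 to 0.16, unadjusted p = 0.145). Col17a1, the transmembrane collagen of hemidesmosomes in basal epithelial cells, had 90, 133 and 118 reads in Dnmt1KO lungs and 92, 116 and 112 in WT lungs (0.29, interval -0.23 to 0.80). Col19a1 had 24, 21 and 8 reads in Dnmt1KO lungs and 33, 26 and 20 in WT lungs (-0.47, interval -1.62 to 0.68). All 3 had overlapping groups. Of the remaining transmembrane collagens Col13a1, Col23a1 and Col25a1 had differences of -0.064, 0.0046 and 0.059. Of the remaining fibril-coating types Col9a2 and Col9a3, both known from cartilage, had -0.073 and 0.10, Col12a1 -0.41, Col16a1 0.092 and Col20a1 0.20.

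Collagen genes varied more between libraries of one group than genes at large, with a median within-group SD of 0.28 on the log2 scale against 0.16 over all genes. The spread was widest for Col8a1, a network collagen, with 8, 34 and 14 reads in Dnmt1KO lungs and 89, 7 and 14 in WT lungs, and for Col12a1, a fibril-coating collagen, with 715, 1489 and 1182 in Dnmt1KO and 3984, 955 and 1187 in WT. WT replicate 1 was the highest for both, and without it the log2 difference of Col8a1 was 0.76 in place of -0.19 and that of Col12a1 0.15 in place of -0.41. That library was the highest of the 6 in 18 of the 40 collagen genes and in 20.3% of all genes, and WT replicate 2 was the lowest in 16 of the 40 and in 19.1% of all genes. The median collagen gene lay 0.25 above its 6-library mean in WT replicate 1, while the Dnmt1KO medians were -0.0047, 0.059 and -0.072 and the other WT medians -0.17 and -0.041.

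Markers of other cells also differed between libraries. WT replicate 1 had the highest summed level of neural crest and nerve markers, at 191 RPM, the RPKM scale without the division by length, against 105 to 136 in Dnmt1KO and 85.2 and 109 in the other WT libraries. Its skeletal muscle markers summed to 8.75 RPM, against 1.33 to 4.02 in Dnmt1KO and 4.47 and 0.776 in the other WT libraries, from 2 measured genes of 6. Heart muscle markers were highest in Dnmt1KO replicate 2, at 545 RPM against 49.0 and 119 in the other Dnmt1KO libraries and 59.6 to 96.8 in WT. The part of these cells in the collagen values was not tested. Without WT replicate 1 the median log2 difference of the 40 genes was 0.10 with 28 positive, and without WT replicate 2 it was -0.093 with 14 positive, against 0.016 with 22 positive over all 6 libraries.

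**Figure D5:**
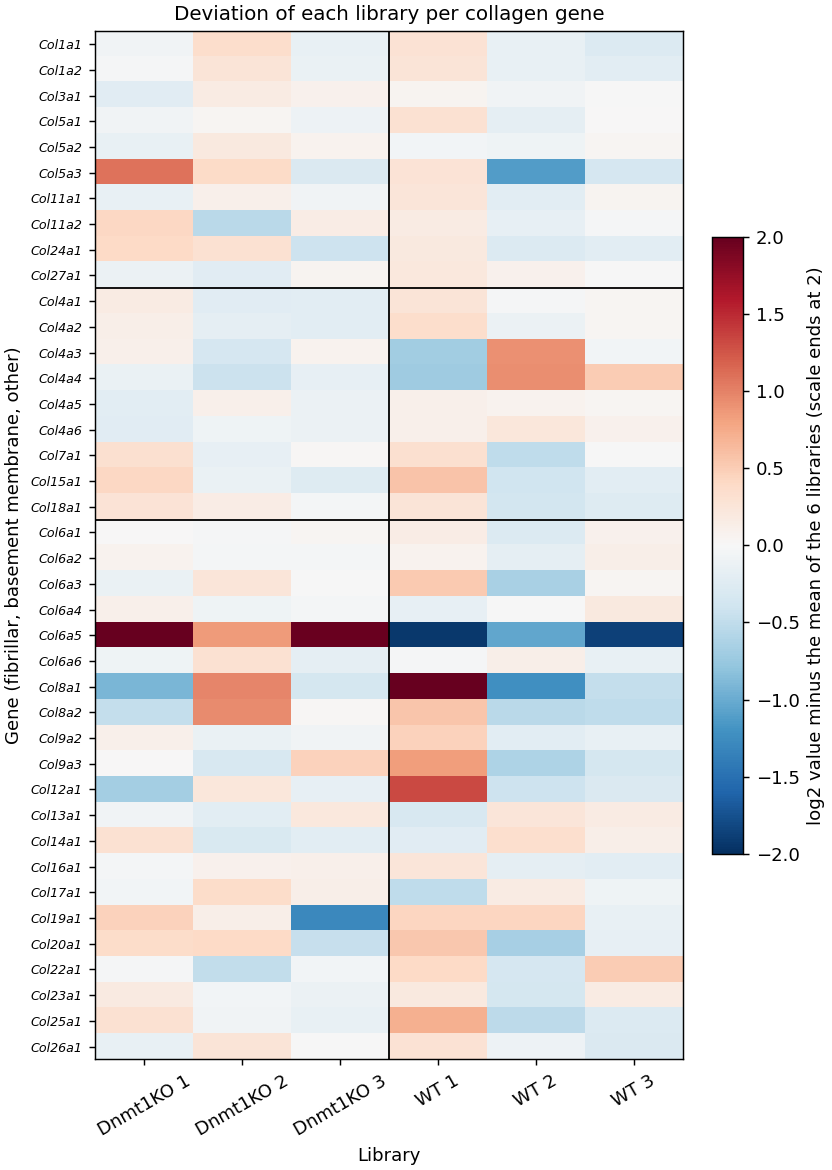
Log2 value of each collagen gene in each library minus its mean over the 6 libraries, Dnmt1KO columns left of WT columns and classes separated by lines. WT replicate 1 is the highest library for 18 of the 40 genes, and the row of Col6a5 is higher in all 3 Dnmt1KO columns.

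The summed levels of markers of the cells that make collagen overlapped between the groups, and no marker gene passed the test. The 12 lung mesenchyme markers summed to 1388 to 1694 RPM in Dnmt1KO and 1540 to 1604 in WT, and the 9 airway smooth muscle markers to 537 to 662 in Dnmt1KO and 429.9 to 916 in WT. In the mesenchyme list the Hedgehog target Gli1 (log2 difference -0.33, unadjusted p = 0.00136, limma adjusted p = 0.187) and the transcription factor gene Foxf1 (-0.38, unadjusted p = 0.00245, adjusted p = 0.261) had every Dnmt1KO library below every WT library. Over all genes 3.99% had groups separate and lower in Dnmt1KO. The 6 measured cartilage markers of 10 summed to 120 to 172 in Dnmt1KO and 119 to 164 in WT. Among them Matn1, a cartilage matrix protein, had 42, 26 and 10 reads in Dnmt1KO lungs and 0, 1 and 2 in WT lungs. It missed the threshold (limma adjusted p = 0.155), and Cnmd, a cartilage membrane protein, had a log2 difference of 1.23 (0.685). Both had groups separate and higher in Dnmt1KO in the scaled values, as had 4.79% of all genes. The 10 lung epithelium markers summed to 619.9 to 937 in Dnmt1KO and 703 to 875 in WT, the 10 endothelial markers to 644 to 864 in Dnmt1KO and 539 to 809 in WT, and the 6 measured of 7 mesothelial markers to 379.6 to 601 in Dnmt1KO and 362 to 523 in WT. The mesothelial genes Upk1b and Msln had log2 differences of 0.64 and 1.26 (limma adjusted p = 0.525 and 0.972), with separate groups for Upk1b, and the epithelial gene Foxa2 had -0.42 (adjusted p = 1). The marker genes named here with their values are all those with an unadjusted p under 0.05. For macrophages the sums were 144 to 154 in Dnmt1KO and 144 to 158 in WT, and for red blood cells 1585 to 2610 in Dnmt1KO and 1151 to 1624 in WT, where all 8 red cell genes had positive differences, from 0.22 to 0.77. Their part in the level of Col6a5 was not tested.

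The balance of collagen types overlapped between the groups. Fibrillar genes took 66.6%, 73.3% and 70.5% of collagen reads in Dnmt1KO lungs and 68.5%, 70.2% and 68.8% in WT. Basement membrane genes took 18.8%, 13.8% and 15.0% in Dnmt1KO and 17.1%, 16.3% and 16.8% in WT. The Dnmt1KO values lay on both sides of the WT values for each class. Col1a1, Col1a2 and Col3a1 alone took 53.4 ± 3.42% of collagen reads in Dnmt1KO and 51.9 ± 1.21% in WT (mean ± SD, n = 3 each). These shares are not per length. Among the other chain pairs, Col3a1 to Col1a1, Col5a1 to Col5a2, Col6a1 to Col6a2 and Col18a1 to Col15a1, the exact two-sided permutation p ran from 0.3 to 0.9, and the smallest that 3 libraries against 3 allow is 0.1. Adjusted over the 7 pairs every p was 1.

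The machinery that makes, binds and breaks down collagen was examined through 7 lists with 106 measured genes of 120. None passed limma's test over all genes, nor voom's, and at an unadjusted p under 0.05 limma had 2 higher and 5 lower. Over all 14162 genes it had 414 higher and 226 lower, which is 4.52%. Of the 106, 51 had a positive log2 difference. Folding and modification genes had a median difference of 0.032 over 22 genes. Of these P3h2, a prolyl 3-hydroxylase that acts on type IV collagen, had the smallest p, with 580, 576 and 617 reads in Dnmt1KO lungs and 1051, 710 and 775 in WT lungs (-0.29 ± 0.11 SE, adjusted p = 0.875). Plod2, a lysyl hydroxylase, differed by 0.24 ± 0.12 and P4hb, a subunit of prolyl 4-hydroxylase, by 0.11 ± 0.074. Maturation and cross-linking genes had a median of -0.0039 over 13 genes, with Loxl2, a lysyl oxidase, at -0.19 ± 0.091, the peroxidase of type IV collagen Pxdn at -0.12 ± 0.11 and the procollagen protease Bmp1 at 0.12 ± 0.14.

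Among collagen-binding matrix proteins, with a median of 0.13 over 12 genes, Thbs1 and Lum had the smallest p. Thbs1, thrombospondin, had 7313, 6376 and 10819 reads in Dnmt1KO lungs and 15560, 11361 and 14970 in WT lungs (-0.59 ± 0.16 SE, limma adjusted p = 0.444), and it passed without Dnmt1KO replicate 3 (-0.77, adjusted p = 0.048). Lum, a proteoglycan that spaces collagen fibrils, had 838, 1324 and 1094 reads in Dnmt1KO lungs and 886, 844 and 867 in WT lungs (0.51 ± 0.14, adjusted p = 0.467), and Tnxb, tenascin X, differed by 0.64 ± 0.27. For Thbs1 and Lum the groups did not overlap in the scaled values, which was so in 8.78% of all genes. It was also so for P3h2, P4hb, Loxl2, Lamb3, Tgfb3 and Smad3 among the other genes named from these lists. Of 20 basement membrane partners, with a median of -0.066, the laminin chain Lamb3 had 240, 227 and 416 reads in Dnmt1KO lungs and 506, 589 and 551 in WT lungs (-0.74 ± 0.22, adjusted p = 0.573), and Lama1 and Lamc3 differed by -0.40 ± 0.19 and -0.30 ± 0.18.

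Collagen receptors had a median of -0.031 over 9 genes, the integrin genes Itga2, Itga1 and Itgb1 having the smallest p at 0.24 ± 0.31, -0.16 ± 0.25 and 0.047 ± 0.080 (SE). Breakdown genes had a median of 0.056 over 12 genes, the matrix metalloproteinase genes Mmp15 and Mmp11 differing by -0.32 ± 0.14 and -0.14 ± 0.092 and the inhibitor gene Timp1 by 0.23 ± 0.13. The TGF-beta list, a pathway that induces collagen genes in fibroblasts, had a median of -0.067 over 18 genes. Of its genes, the ligand gene Tgfb3 differed by -0.38 ± 0.16 and the signal transducer gene Smad3 by -0.15 ± 0.073, and neither passed.

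In sequence, collagen promoters tended to hold fewer CG dinucleotides than those of all measured genes, by their medians and with no test. RefSeq windows of 300 bases, from 250 bases before the start to 50 after it, were found for 32 of the 40 genes, 34 windows in all. The median number of CG dinucleotides was 14.5 in 8 fibrillar windows, 12 in 9 basement membrane windows and 12 in 17 windows of other types, against 20 over the 13865 windows of genes with a row in the tables and 7 over all 32851 windows. The count ran from 0 in Col3a1 to 37 in Col4a1. The ratio of observed to expected CG had a median of 0.48 against 0.73 for genes with a row, at a similar GC content of 60.2% against 60.7%. The letters TATAAA on either strand were in 11.8% of collagen windows against 7.14% of windows of genes with a row and 13.6% of all windows. CCAAT was in 35.3% against 37.2% and 37.4%, and GGGCGG in 67.6% against 61.5% and 35.7%. Col6a5 held GGGCGG and neither of the others. A match is a description of these letters and not of a bound site.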

How the data were processed

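RNA-seq of 6 mouse lung libraries at E12.5 was used, 3 Dnmt1KO and 3 WT, grouped by title. Each library has a table of 14162 Ensembl identifiers with 1 value each, whose unit the headers do not name. STAR, limma and mm9 stand in the submitters' processing notes, with no roles. The counter, annotation, gene filter and scaling are not given in the sources used. Per the values themselves, the deposited numbers are log2: as powers of 2 they came out as a library's constant times whole reads increased by 0.5, for 100% of genes within a tolerance of 1e-06. Every gene had at least 60 reads over all libraries, and libraries held 18192629 to 25597662 reads. The scaled totals of the libraries differed by at most 0.035 on the log2 scale.

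Symbols for 13967 identifiers, chromosomes and lengths (longest protein-coding transcript) came from GENCODE's GRCm38 annotation and promoters from RefSeq GRCm38.p6. No protein table was used here. RPKM values use the recovered reads and those lengths. The deposited values of all genes were fitted with limma 3.58.1 (R 4.3.3), with genotype as the only term, trend and robust estimation and Benjamini-Hochberg adjustment at 0.05. The fit was tested on simulated counts with the same spread setting for every gene. Collagen genes had a median within-group SD of 0.28 against 0.16 over all genes. That test therefore does not show how well changes in collagen genes are found. The members and lists were chosen with earlier results of these data known. Values are given for the 4 genes per class with the highest mean and the 4 with the smallest p, and for the 3 with the smallest p per pathway list, and other genes named were chosen after their values were seen. A gene that this rule would name is not reported here. Chain ratios had exact permutation tests. Other fits took the replicate number as a block, dropped the lowest 25% of genes or used quantile normalization, median centring, no trend or robust estimation, sample weights, voom on the recovered reads or 5 of the 6 libraries.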

Additional observations from a re-analysis of the deposited data

How the results depend on the processing

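The count of collagen genes called, 1 over all 6 libraries, was 0 to 1 on leaving libraries out singly, with 0 without Dnmt1KO replicate 1 and 0 without WT replicate 3. It was 0 with the replicate number as a block, 0 without trend and robust estimation, 0 with voom and 0 without the lowest 25% of genes. The last of these fits left Col6a5 out and so could not call it. At an unadjusted p under 0.05 by limma or voom these 4 fits had 6, 2 and 2 of 40 and 1 of 32 collagen genes. Over all genes they had 771, 706 and 615 of 14162 and 308 of 10621. Of the 6 collagen genes with the block, 4 were among the 9 basement membrane genes, 1 higher and 3 lower in Dnmt1KO. Col6a5 itself had a log2 difference of 3.23 and an adjusted p of 0.195 with the block. No collagen gene other than Col6a5 passed under any of the 13 alternatives. The number of genes called over the whole table, 41, became 26 with the block, 25 with voom, 69 with sample weights and 0 of 10621 without the lowest 25% of genes, where 308 had an unadjusted p under 0.05, and 15 to 56 on leaving libraries out singly, with 15 without Dnmt1KO replicate 1 and 25 each without Dnmt1KO replicate 2 or WT replicate 3. The cause of these changes was not tested.

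The correlations of same-numbered libraries' deviations from their group means were -0.003, -0.18 and 0.306 across genes. Those of libraries with different numbers ran from -0.373 to 0.379. Pairing by replicate number was not seen in these values, but so few libraries cannot exclude it. The block is given as an alternative only. The sign of the log2 difference held under every alternative for 14 of the 40 collagen genes and turned under at least 1 for 26. The share of reads in collagen genes was higher in Dnmt1KO by 0.0143 percentage points, and by 0.0153 with the blood and muscle lists left out of the total. Reads were as few as 7 in a library for Col8a1, whose interval ran from -2.13 to 1.75, but Col6a4 with 55 to 77 reads had -0.50 to 0.48 and Col12a1 with 715 to 3984 reads had -1.63 to 0.81.

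With libraries left out in turn, genes that turned sign had these ranges of the log2 difference. The fibrillar genes ran over -0.073 to 0.25 for Col1a1, -0.037 to 0.22 for Col1a2, -0.067 to 0.13 for Col3a1, -0.20 to 0.045 for Col5a1, -0.0052 to 0.17 for Col5a2, -0.19 to 0.038 for Col11a1 and -0.19 to 0.29 for Col11a2. Basement membrane genes ran over -0.48 to 0.32 for Col4a3, -0.093 to 0.32 for Col7a1 and -0.18 to 0.31 for Col15a1. Type VI genes ran over -0.11 to 0.10 for Col6a1, -0.093 to 0.05 for Col6a2, -0.25 to 0.34 for Col6a3, -0.093 to 0.087 for Col6a4 and -0.11 to 0.13 for Col6a6. Those of other types ran over -0.86 to 0.76 for Col8a1, -0.063 to 0.69 for Col8a2, -0.19 to 0.14 for Col9a2, -0.19 to 0.54 for Col9a3 and -0.71 to 0.15 for Col12a1, and over -0.24 to 0.044 for Col13a1, -0.81 to 0.056 for Col19a1, -0.09 to 0.52 for Col20a1, -0.17 to 0.10 for Col23a1, -0.19 to 0.43 for Col25a1 and -0.067 to 0.23 for Col26a1. Outside the collagens the ranges were -0.36 to 0.06 for Itga1, -0.068 to 0.47 for Itga2, -0.0016 to 0.077 for Itgb1, -0.084 to 0.033 for Pik3r4 and -0.068 to 0.0015 for Ppm1m. Of the remaining settings, sample weights gave -0.12 for Col11a2, -0.042 for Col23a1, -0.015 for Col6a1, 0.42 for Col8a1 and -0.00035 for Itgb1, quantile normalization gave 0.017 for Col6a2, and voom gave 0.01 for Col6a2 and 0.0078 for Col6a4. None of these values passed the test. Col6a5 ranged from 3.03 to 3.61 and Thbs1 from -0.77 to -0.42.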
